A study of Mus musculus with 21 samples.

Results

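The cornified envelope genes of the Sprr-Lce cluster were followed in 3 mouse models of basal cell carcinoma (BCC). Members were the protein-coding rows of the count table whose name begins with Lce or Sprr, with Lor, Ivl, Flg, Flg2, Hrnr, Rptn, Tchh, Tchhl1 and Crnn. This gave 44 of the 23713 genes in the table, all on chromosome 3 of the mouse build GRCm38 between 92080271 and 93471980. Along the cluster lie Lor (chr3:92080271-92083142, minus strand), the Sprr2 and Sprr1 genes, Ivl (chr3:92570902-92573735, minus strand), the Lce genes, Crnn, the filaggrins, Hrnr (chr3:93319749-93333570, plus strand), Rptn and Tchh (chr3:93442330-93449077, plus strand). They were read in 3 lists: 15 early genes (Ivl and the 14 Sprr genes), 25 late genes (Lor, Flg, Flg2, Hrnr and the 21 Lce genes), and 4 genes restricted to specialised epithelia (Rptn, Tchh, Tchhl1, Crnn). RNA came from keratinocytes isolated from tail skin, source skin per the labels, in 21 libraries: 3 from control mice (Con) and 4 from mice with tumours (BCC) in each of the models SmoM2, Gnas-eKO and PKI. Tumours had been induced 29 days earlier in SmoM2 (batch A), 42 days earlier in Gnas-eKO (batch B) and 57 days earlier in PKI (batch C), so that model, day and batch cannot be told apart. SmoM2 is known as an oncogenic Smoothened mutant that switches on Hedgehog signalling. Gnas is the gene of the G protein subunit that activates adenylyl cyclase, and PKI is the usual short name of the inhibitor of protein kinase A. The promoters that drive these alleles, the PKI construct, the strain, the ages of the mice and the alleles that the controls carry are not given in the sources used here. The comparisons ask how tumour epidermis differs from control epidermis within each model, and whether early and late envelope genes move alike.

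The cornified envelope is a layer of cross-linked protein that replaces the membrane of a keratinocyte as it dies at the skin surface. Transglutaminases first join involucrin (Ivl) and its partners into a scaffold. Loricrin (Lor), the main protein of the finished envelope, and the late cornified envelope proteins (Lce) are then added, and small proline-rich proteins (Sprr) act as bridges between them. Filaggrin (Flg), filaggrin 2 (Flg2) and hornerin (Hrnr) belong to the fused S100 family and serve the keratin bundles and the barrier. Repetin (Rptn), cornulin (Crnn), trichohyalin (Tchh) and Tchhl1 are of the same family. Trichohyalin is best known from the inner root sheath of the hair and from filiform papillae of the tongue. Several Sprr genes are known to be induced when skin is wounded or inflamed.

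Coding sequences are shown because the large families differ in their codons. Most Sprr genes are made of proline-rich repeats, and Lor and the Lce1 genes hold many glycine codons. The first line is the whole coding sequence of Sprr2a2, the member with the highest value in the series, with proline codons (CCN) in capitals. The next are the first 240 of 432 bases of Lce1a1 and the first 300 of 1461 bases of Lor, with glycine codons (GGN) in capitals. All were read from GENCODE M21 on GRCm38.
Sprr2a2: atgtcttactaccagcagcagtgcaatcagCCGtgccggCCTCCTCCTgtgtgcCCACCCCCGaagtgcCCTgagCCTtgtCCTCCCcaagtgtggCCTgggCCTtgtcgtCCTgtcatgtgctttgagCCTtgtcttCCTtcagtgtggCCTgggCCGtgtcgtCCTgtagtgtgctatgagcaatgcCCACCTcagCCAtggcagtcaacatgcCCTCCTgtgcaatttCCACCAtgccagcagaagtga
Lce1a1: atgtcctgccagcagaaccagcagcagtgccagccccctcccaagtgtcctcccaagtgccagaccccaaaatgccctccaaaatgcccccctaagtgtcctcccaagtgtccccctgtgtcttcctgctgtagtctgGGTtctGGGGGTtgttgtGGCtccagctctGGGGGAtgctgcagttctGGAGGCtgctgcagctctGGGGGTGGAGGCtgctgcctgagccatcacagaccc
Lor: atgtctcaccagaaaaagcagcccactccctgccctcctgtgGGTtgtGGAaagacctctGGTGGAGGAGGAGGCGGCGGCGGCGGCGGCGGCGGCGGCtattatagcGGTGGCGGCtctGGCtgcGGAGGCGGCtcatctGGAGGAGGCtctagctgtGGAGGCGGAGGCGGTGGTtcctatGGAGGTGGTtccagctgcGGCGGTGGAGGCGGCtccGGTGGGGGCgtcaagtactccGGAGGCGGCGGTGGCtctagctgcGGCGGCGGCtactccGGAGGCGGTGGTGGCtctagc
In Sprr2a2, 26 of 84 codons encode proline (31.0%). Over the 11 Sprr2 genes the median was 39.0%, and over the 14 Lce1 genes it was 10.2%. The early genes Sprr2j-ps (9.09%) and Ivl (8.96%) lay under that Lce1 median, so a high proline share is not shared by the whole early list. Sprr2j-ps is a member because its row is listed as protein-coding, though its name carries the suffix of a pseudogene. Glycine codons made up 20.1% of the median Lce1 gene and 55.2% of Lor, where 269 of 487 codons encode it. In the late gene Flg the share was 8.96%, read from an annotated coding sequence of 357 codons beside 18829 exon bases. The coding sequences of Sprr2a1 and Sprr2a2 were identical, and that of Sprr2a3 differed from theirs in 3 of 252 bases. Sprr2a1 and Sprr2a2 also overlap on the same strand. Of all stretches of 50 bases in their exons, 3.72% in Sprr2a1, 3.53% in Sprr2a2 and 38.9% in Sprr2a3 occurred in no other transcript. The 6 Lce3 genes were 94.3% to 99.3% identical, and pairs of Lce1 genes had a median identity of 83.6%. The deposited counts lay more than 0.01 from a whole number in 18 or more of the 21 libraries for the 3 Sprr2a genes, so the split of reads among such copies is uncertain, and family sums are given beside single genes.

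Promoters were compared because the early and late lists moved apart in PKI. Printed are the 200 bases before the RefSeq start of 3 early genes (Sprr1a, Sprr2d and Ivl) and 2 late genes (Lor and Lce1a1), read along the gene on GRCm38.p6. Capitals mark the AP-1 letters TGANTCA and the TATA box letters TATAAA. AP-1, the Fos and Jun family, is a textbook regulator of involucrin and of Sprr1a.
Sprr1a, chr3:92485882-92486081, minus strand: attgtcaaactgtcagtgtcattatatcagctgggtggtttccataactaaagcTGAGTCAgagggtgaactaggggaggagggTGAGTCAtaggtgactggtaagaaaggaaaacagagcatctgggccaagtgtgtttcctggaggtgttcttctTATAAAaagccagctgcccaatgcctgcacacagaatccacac
Sprr2d, chr3:92338940-92339139, plus strand: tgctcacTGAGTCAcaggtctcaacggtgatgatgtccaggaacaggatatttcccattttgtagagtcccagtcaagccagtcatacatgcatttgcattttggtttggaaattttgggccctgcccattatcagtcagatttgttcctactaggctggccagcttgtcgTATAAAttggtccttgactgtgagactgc
Ivl, chr3:92573736-92573935, minus strand: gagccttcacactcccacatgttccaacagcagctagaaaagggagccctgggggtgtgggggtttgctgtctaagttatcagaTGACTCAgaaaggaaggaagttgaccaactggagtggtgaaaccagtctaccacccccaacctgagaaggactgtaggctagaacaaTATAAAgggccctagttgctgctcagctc
Lor, chr3:92083143-92083342, minus strand: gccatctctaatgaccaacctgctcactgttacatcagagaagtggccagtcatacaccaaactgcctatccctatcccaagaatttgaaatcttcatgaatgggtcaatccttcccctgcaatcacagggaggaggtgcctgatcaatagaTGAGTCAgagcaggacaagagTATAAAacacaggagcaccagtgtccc
Lce1a1, chr3:92648308-92648507, minus strand: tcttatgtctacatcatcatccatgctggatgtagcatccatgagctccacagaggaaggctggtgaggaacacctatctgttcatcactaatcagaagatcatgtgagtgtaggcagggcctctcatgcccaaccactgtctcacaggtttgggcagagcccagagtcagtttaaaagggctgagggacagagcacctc
RefSeq promoters were found for 42 of the 44 members, and the 250 bases before the start were searched on both strands. The AP-1 letters were present in 10 of 14 early promoters (71.4%) and in 3 of 24 late promoters (12.5%), beside 6.87% of all 27025 promoters of the table. The late genes with a match were Lor, Flg and Flg2, and none of 13 Lce1 or 6 Lce3 promoters had one. Of the restricted genes, Crnn, Rptn and Tchhl1 had a match and Tchh had none. Position was shared within the Sprr2 family: in all 7 Sprr2 promoters outside the Sprr2a group a match to the AP-1 letters began 193 to 198 bases before the start and TATAAA began 29 bases before it, and Sprr2k had a further AP-1 match closer to the start. The 3 Sprr2a windows held neither, and their RefSeq starts lie 36 (Sprr2a1), 34727 (Sprr2a2) and 113 bases (Sprr2a3) from the GENCODE starts. TATAAA occurred in 10 of 14 early and 7 of 24 late promoters, against 13.0% of all. The KLF-type letters GGGNGGG were found in 14.3% of member promoters and 44.4% of all, CACCC in 40.5% and 51.3%, and the ETS core GGAA in 100% and 93.4%. Family members share ancestry, so these promoters are not independent of each other, and a match is a description of letters.

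**Figure D1:**
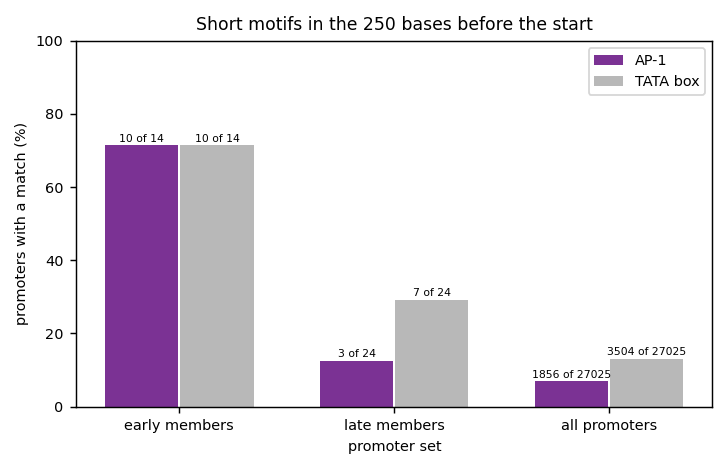
Share of promoters (%) with the AP-1 letters or the TATA box in the 250 bases before the RefSeq start, for early members, late members and all promoters. Each motif was in 10 of 14 early promoters, while AP-1 was in 3 of 24 late promoters.

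Library totals ran from 16645858 to 22251132 counts, and 3 counts were worth at most 0.189 CPM, the level used throughout (counts scaled by library size and TMM over all libraries). Smo rose in SmoM2, from 93.7 to 111 CPM in Con to 283 to 312 in BCC. It was also higher in PKI BCC, at 138 to 161 CPM against 98.1 to 113 (adjusted p 0.00187 by edgeR), and lay at 150 to 234 CPM against 106 to 113 in Gnas-eKO (adjusted p 0.0503 by edgeR). Gnas had 172 to 178 CPM in Gnas-eKO Con and 51.1 to 115 in BCC (adjusted p 0.0647 by edgeR), and Pkia, a gene of the inhibitor family, had 3.73 to 4.99 CPM in PKI Con and 2.11 to 3.74 in BCC (adjusted p 0.0956 by edgeR). Keratinocyte markers were abundant, with a summed level of 29316 to 83679 CPM for 5 of 5 genes in every library, and skeletal muscle markers stayed under 0.775 CPM. On the first principal component Gnas-eKO BCC replicate 2 lay at −20.4, between the Con libraries (−57.2 to −40.4) and the other BCC libraries (32.4 to 59.4). Among the members SmoM2 Con replicate 1 stood apart, with 92.1 CPM summed over the Lce1 genes, against 484 and 745 in the other SmoM2 Con libraries. In the column headers each library has a code of its own, and the codes of SmoM2 BCC and SmoM2 Con begin with different letters. What the codes stand for is not stated, and whatever the letters mark cannot be told apart from tumour in SmoM2. Whether each code is a separate animal is not stated either, so p-values measure the spread between these libraries, which may be technical. In bulk RNA fewer cells of a kind and less RNA per cell cannot be told apart.

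In Con skin, levels were compared per exon length for 7 members. Loricrin had 347 ± 194 CPM per kilobase in SmoM2 Con, 175 ± 46.8 in Gnas-eKO Con and 412 ± 61.8 in PKI Con (SD, n = 3 each). Sprr2b had 369 ± 170, 251 ± 130 and 157 ± 63.1 CPM per kilobase in the same groups, above Lor by less than the SD of Sprr2b in SmoM2 and Gnas-eKO and below Lor in PKI. In Gnas-eKO the gap was larger than the SD of Lor. Over the 9 Con libraries, Sprr1a had 166 ± 45.5 CPM per kilobase, Sprr1b 131 ± 56.8, Lce1a1 88.1 ± 54.3, Hrnr 37.6 ± 17.6 and Ivl 27.5 ± 7.38 (SD, n = 9). This order did not hold in each model: Lce1a1 was under Sprr1b in SmoM2 Con (95.7 ± 70.8 and 187 ± 56.7 CPM per kilobase) and Gnas-eKO Con (44.7 ± 14.7 and 100.3 ± 12.3), and above it by less than 1 SD in PKI Con (124 ± 41.8 and 105 ± 49.7; SD, n = 3 each). All members together held 0.231% to 0.289% of the counts in PKI Con, against 0.604% to 1.31% in PKI tumours. In SmoM2 the share was 0.133% to 0.347% in Con and 0.0877% to 0.185% in BCC, and in Gnas-eKO it was 0.146% to 0.199% and 0.154% to 0.325%.

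**Figure D2:**
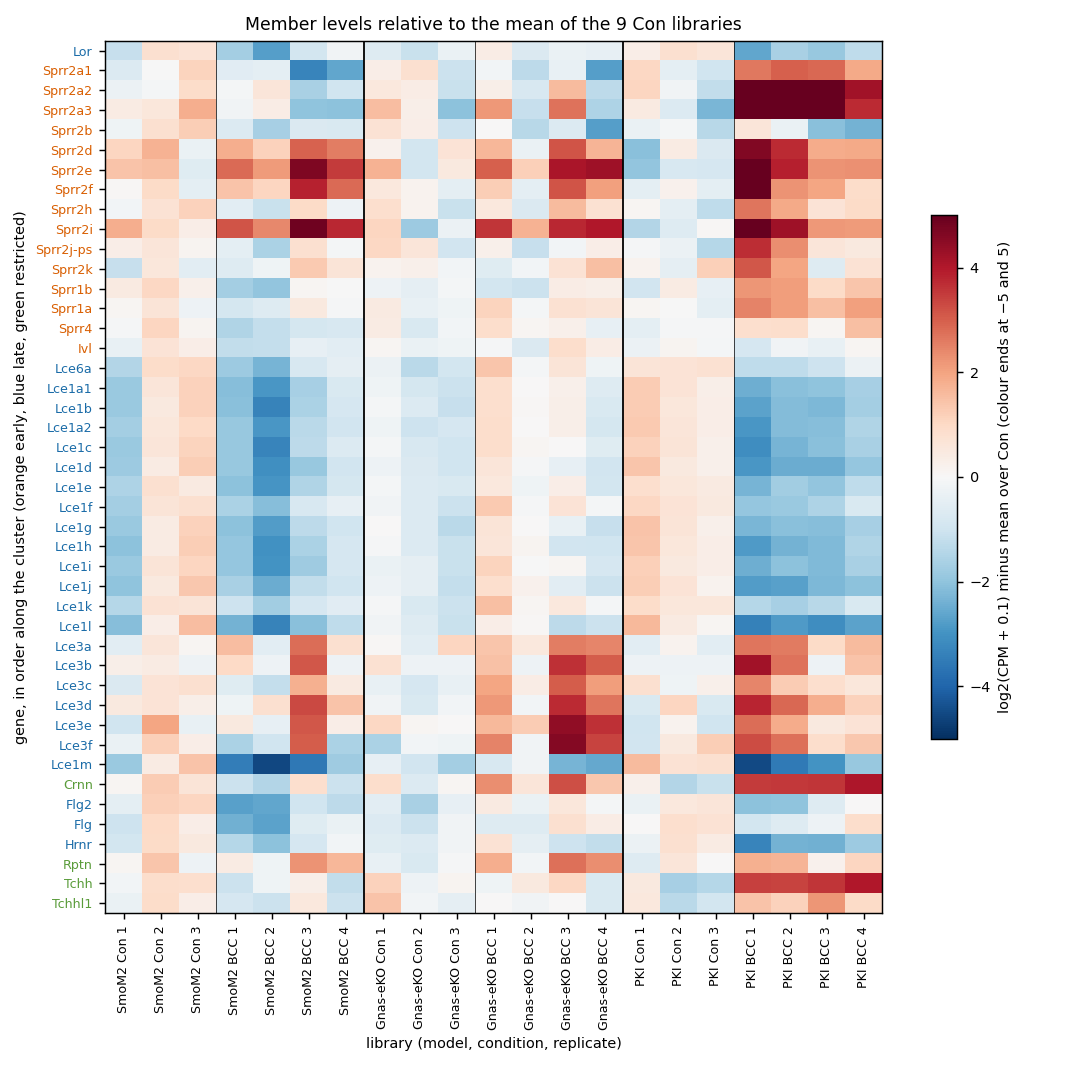
Each row is a member in its order along the cluster and each column a library. Colour gives log2(CPM + 0.1) minus the mean over the 9 Con libraries, limited to −5 and 5. The 4 PKI BCC libraries are red over most Sprr rows and blue over the Lce1 rows.

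PKI tumours showed early and late genes moving in opposite directions. Of 15 early genes 13 were tested, and 11 rose while none fell. Of 25 late genes 21 were tested, and 17 fell while none rose. Over all 16397 genes tested in PKI, 18.7% were called higher and 15.8% lower (edgeR quasi-likelihood test, Benjamini-Hochberg adjusted p under 0.05). The median log2 fold change, BCC over Con, was 2.56 for the early genes and −2.80 for the late genes, against −0.00118 for all genes. In these called members the BCC and Con libraries did not overlap, as in 22.4% (above) and 20.8% (below) of all genes tested. All 17 late calls held in each of the 7 fits that left out 1 library. The early count fell to 6, 7 and 5 without Con replicates 1, 2 and 3, and to 6 without BCC replicate 2. In these fits 27.6%, 24.1%, 25% and 28.4% of all genes were called in either direction. With the replicate number as a block, 6 early genes were called higher and 1 lower, with 36.5% of all genes called. Without the low-count filter 7 were called higher, with 23.3% of all genes called. The 5 early genes called in all 7 fits that left out 1 library were Sprr1a, Sprr2a1, Sprr2a2, Sprr2a3 and Sprr2e. Sprr2e passed the low-count filter only through the BCC libraries, as did Sprr2i and Sprr2j-ps among the 11. A fall in these could hardly be seen, so their calls are no separate support for the early rise.

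Among the tested members the highest PKI fold changes were those of Sprr2 genes, with Sprr2a3 at 6.24 on the log2 scale (SE 1.16 and adjusted p 0.00975 by edgeR). Sprr2a2, the most abundant Sprr2 gene in PKI BCC, had 368, 157 and 74.5 CPM in PKI Con replicates 1 to 3 and 9122, 8754, 6510 and 3237 CPM in PKI BCC replicates 1 to 4. Every BCC library lay above every Con library, with log2 fold change 5.13 (SE 0.76 and adjusted p 0.00409 by edgeR). Because its reads can be assigned to the identical Sprr2a1, the Sprr2 sum is the firmer value. The 11 Sprr2 genes together had 362 ± 200 CPM in PKI Con (SD, n = 3) and 7784 ± 3302 CPM in PKI BCC (SD, n = 4), log2 fold change 4.44 (SE 0.64 and adjusted p 0.00343 by edgeR). They made up 1.09%, 0.941%, 0.712% and 0.353% of all counts in the 4 PKI BCC libraries, and at most 0.0554% in PKI Con. The sum was called in all 7 fits that left out 1 library, with log2 fold changes of 4.09 to 4.90.

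Within the Sprr2 family levels and fold changes were spread widely. Sprr2a3 had 1.68 to 11.6 CPM in PKI Con, and 115 to 1064 CPM in the PKI tumours, and Sprr2a1 had 5.65 to 23.4 and 42.7 to 92.2 CPM. Sprr2d rose from 2.63, 15.5 and 6.97 CPM to 292, 154, 42.3 and 43.7 CPM, log2 fold change 4.02 (SE 1.07 and adjusted p 0.0333 by edgeR), and Sprr2h rose by 2.23 (adjusted p 0.0354 by edgeR). The sparse genes Sprr2e, Sprr2i and Sprr2j-ps had at most 0.48 CPM in PKI Con and 0.713 to 50.2 CPM in PKI BCC. Their fitted log2 fold changes of 6.04, 5.89 and 3.18 were called, but for Sprr2e the Con libraries lay under the value of 3 counts, so its fold depends on the prior count. The genes Sprr2d to Sprr2j-ps were highest in PKI BCC replicate 1 and lower in replicates 3 and 4. Sprr2b, which lies next to Sprr2d in the cluster, was not called. It had 140, 161 and 67.2 CPM in PKI Con and 268, 140, 41.0 and 33.6 CPM in PKI BCC, log2 fold change −0.01 (SE 0.82 and adjusted p 0.992 by edgeR). Its BCC libraries lay on both sides of the Con libraries. Sprr2f and Sprr2k were too low to be tested in any model. The calls of Sprr2d, Sprr2h, Sprr2i and Sprr2j-ps were each kept in 3 of the 7 fits that left out 1 library.

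Sprr1a, one of the Sprr genes known from wounded epithelium, had 140, 128 and 92.5 CPM in PKI Con and 721, 548, 366 and 532 CPM in PKI BCC. All 4 tumour libraries were above all controls, and it rose by 2.18 on the log2 scale (SE 0.25 and adjusted p 0.000718 by edgeR). Its neighbour Sprr1b rose by 1.96 (SE 0.45 and adjusted p 0.0173 by edgeR) and did not pass without PKI Con replicate 3. Sprr4 rose from 1.37 to 1.92 CPM to 2.14 to 5.76 CPM, log2 fold change 1.15 (adjusted p 0.0298 by edgeR), and was called in 2 of the 7 fits that left out 1 library. Ivl, the early scaffold protein, did not go with the Sprr genes. It had 42.0, 56.5 and 48.4 CPM in PKI Con and 28.9, 45.4, 39.3 and 54.4 CPM in PKI BCC, with overlapping groups and log2 fold change −0.21 (SE 0.20 and adjusted p 0.458 by edgeR). With the replicate number as a block Ivl was called lower (adjusted p 0.0168 by edgeR).

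Among late genes Lor had 622, 842 and 737 CPM in PKI Con and 81.7, 161, 130 and 201 CPM in PKI BCC. The highest tumour value was below the lowest control value, with log2 fold change −2.35 (SE 0.29 and adjusted p 0.00122 by edgeR). All 14 Lce1 genes fell, with log2 fold changes from −4.10 in Lce1m to −1.98 in Lce1k and edgeR adjusted p-values of at most 0.00147. Their sum was 821, 505 and 417 CPM in PKI Con and 51.7, 69.7, 72.7 and 107 CPM in PKI BCC, log2 fold change −2.94 (SE 0.31 and adjusted p 0.000741 by edgeR) or 7.65-fold lower. Lce6a, a further late envelope gene that lies between Ivl and the Lce1 genes, fell by 1.64 on the log2 scale (adjusted p 0.00206 by edgeR).

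The fused S100 genes of the late list, Hrnr, Flg and Flg2, all had negative fold changes in PKI, and hornerin was called. It fell, with 310, 658 and 502 CPM in Con and 39.1, 73.6, 72.9 and 109 CPM in BCC, log2 fold change −2.72 (SE 0.39 and adjusted p 0.00304 by edgeR). Filaggrin had 137, 240 and 225 CPM in Con and 71.7, 85.0, 113 and 248.6 CPM in BCC, where replicate 4 lay above all controls (log2 fold change −0.62, adjusted p 0.366 by edgeR). Flg2 had 16.9 to 32.1 CPM in Con and 4.98 to 21.3 CPM in BCC (−1.23, adjusted p 0.140 by edgeR). Without BCC replicate 4 both were called lower, Flg at −1.14 (adjusted p 0.0173 by edgeR) and Flg2 at −1.72 (adjusted p 0.0369 by edgeR). Both were also called lower with the replicate number as a block (adjusted p 0.000328 and 0.00369 by edgeR). The spans of the genes Hrnr, Rptn and Tchh overlap that of Gm37245 on the other strand. Whether their exons overlap was not read, and whether counting used strand is not given in the sources used here.

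The Lce3 genes, late envelope genes known to be induced in damaged or psoriatic skin, were low. Of 6, 2 passed the low-count filter in PKI, and neither was called. The sum of the 6 was 1.32, 1.33 and 1.44 CPM in PKI Con and 13.3, 6.92, 2.63 and 2.74 CPM in PKI BCC, log2 fold change 2.24 (SE 0.63 and adjusted p 0.0275 by edgeR). That sum lost its call without Con replicate 1, 2 or 3 or BCC replicate 2, with log2 fold changes of 1.58 to 2.50 and edgeR adjusted p-values of up to 0.0875 over the 7 fits.

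Of the 4 restricted genes 3 rose in PKI and none fell. Crnn had 2.89, 0.821 and 1.08 CPM in Con and 28.5, 28.8, 29.9 and 41.6 CPM in BCC, log2 fold change 4.30 (SE 0.38 and adjusted p 0.000271 by edgeR). Tchh, the inner root sheath protein, had 73.2, 16.5 and 19.2 CPM in Con and 564, 540, 629 and 828 CPM in BCC, log2 fold change 4.15 (SE 0.64 and adjusted p 0.00457 by edgeR). Tchhl1 rose from 0.0631 to 0.507 CPM to 0.713 to 1.82 CPM (2.18, adjusted p 0.0266 by edgeR), and was called in 4 of the 7 fits that left out 1 library. Rptn had 23.9 to 57.6 CPM in Con and 44.0 to 131 CPM in BCC, log2 fold change 1.25 that missed the threshold (adjusted p 0.0883 by edgeR). Markers of other cells moved in the same libraries. The summed level of 6 hair follicle markers was 164 to 313 CPM in PKI Con, and 1330 to 1752 CPM in the PKI tumours, with 5 of 6 called higher, among them the inner root sheath keratins Krt25, Krt27, Krt28 and Krt71. Neutrophil markers (3 of 5 in the table, S100a8 and S100a9 among them, which keratinocytes also make) summed to 2.28 to 12.0 CPM in Con and 912 to 3574 CPM in BCC. Leukocyte markers summed to 41.3 to 103 and 228 to 440 CPM, with 5 of 6 called higher. Tail scale and hair cortex keratins (4 of 4 in the table) summed to 12191 to 28740 CPM in Con and 1363 to 5872 CPM in BCC, with 1 called higher and 2 lower. Fibroblast markers summed to 15.8 to 43.5 CPM in Con and 84.4 to 145 CPM in BCC, with 3 of 6 called higher. Melanocyte markers summed to 149 to 194 CPM in Con and 74.3 to 118 CPM in BCC, without overlap, and 3 of 5 were called lower. Interfollicular keratinocyte markers summed to 55432 to 78751 and 40618 to 69454 CPM, with overlap, 1 of 5 being called higher and 2 lower. Of the sebaceous markers 1 of 4 was called lower, and of the endothelial markers 1 of 4 higher. The part of these markers in the rise of Tchh, Crnn and the Sprr genes or in the fall of the late genes was not tested.

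**Figure D3:**
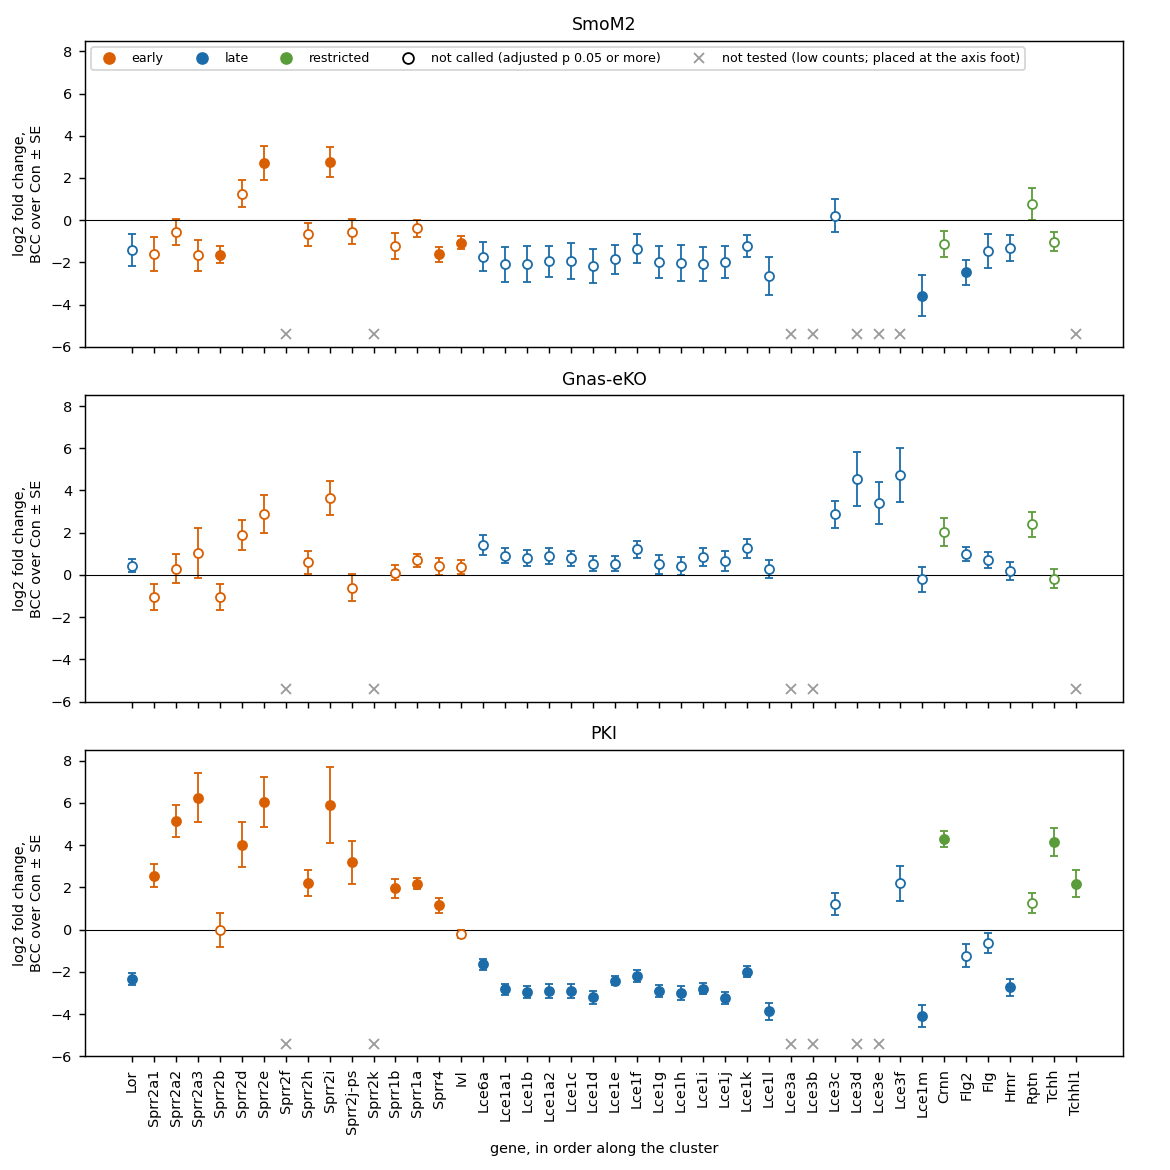
Log2 fold change (BCC over Con, ± SE) of each tested member in its order along the cluster, 1 panel per model. Filled points were called, and in PKI the 14 Lce1 genes lie between −4.10 and −1.98 while 11 early genes are filled above 0.

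In SmoM2 tumours, most members had negative fold changes, and how many were called depended on the method. Of the 36 tested members, 31 had a negative and 5 a positive log2 fold change. Of 13 early genes tested 2 rose and 3 fell, of 20 late genes none rose and 2 fell, and none of 3 restricted genes was called. Crnn, at −1.14 (adjusted p 0.205 by edgeR), passed without BCC replicate 3 (−2.02, adjusted p 0.00385 by edgeR), and Tchh, at −1.01 (adjusted p 0.162 by edgeR), passed with the replicate number as a block (−0.85, adjusted p 0.00742 by edgeR). Over all 16370 genes tested in SmoM2, 16.2% were called higher and 13.5% lower. DESeq2 called 13 late genes lower, with 32.4% of all genes called in either direction, and a joint edgeR fit of all 21 libraries called 14, with 22.7% of all genes. The medians were −0.67 for early and −1.96 for late genes, against 0.00 for all genes. Leaving out 1 library moved them from −1.22 (without BCC replicate 3) to −0.59 and from −2.44 to −1.40. The BCC libraries lay above all Con libraries in 2 members and below them in 6, as in 19.6% and 19.2% of all genes tested.

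Ivl fell in SmoM2, from 40.1, 83.0 and 65.2 CPM in Con to 22.0, 22.4, 39.0 and 36.0 CPM in BCC (log2 fold change −1.06, SE 0.31, adjusted p 0.0442 by edgeR). Without Con replicate 1, the library that stood apart, it was −1.30 (adjusted p 0.0177 by edgeR). Over the 7 fits that left out 1 library, Ivl ran from −1.30 to −0.80 (adjusted p up to 0.130 by edgeR) and was called in 2. All tumour libraries were below the controls, though the lowest control and the highest tumour value were close. Sprr4 fell from 1.88 to 4.30 CPM to 0.633 to 1.11 CPM (−1.61, SE 0.36, adjusted p 0.00783 by edgeR), the 1 call in SmoM2 that held in all 7 fits that left out 1 library. Sprr2b had 151, 301 and 416 CPM in Con and 108, 55.2, 105 and 102 CPM in BCC, log2 fold change −1.63 (SE 0.40 and adjusted p 0.0278 by edgeR). Its call was kept in 2 of the 7 fits that left out 1 library. The sparse Sprr2e and Sprr2i rose at the same time, by 2.71 and 2.74 on the log2 scale (adjusted p 0.0400 and 0.0242 by edgeR). Without Con replicate 1, Sprr2e missed the threshold (3.00, adjusted p 0.0994 by edgeR). Of the 7 fits that left out 1 library, Sprr2e was called in 3 and Sprr2i in 5. Sprr2e had 0.162 to 1.03 CPM in Con and 1.64 to 10.1 CPM in BCC, and Sprr2i had 0.595 to 1.88 and 2.85 to 15.9 CPM. The neutrophil markers summed to 14.0 to 101 CPM in SmoM2 Con and 383 to 1013 CPM in SmoM2 BCC. Called higher were 2 of 3, S100a8 and S100a9, which keratinocytes also make. The third, Cxcr2, had 1.24 to 4.54 CPM in Con and 1.48 to 2.61 CPM in BCC (−0.52, adjusted p 0.374 by edgeR). The part of these markers in the rises of Sprr2e and Sprr2i was not tested. The Sprr2 sum had 354, 557 and 849 CPM in Con and 346, 377, 314 and 291 CPM in BCC (−0.81, adjusted p 0.0685 by edgeR), and passed without Con replicate 1 (−1.07, adjusted p 0.00361 by edgeR).

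Lor and the Lce1 sum were lower in every SmoM2 BCC library than in Con replicates 2 and 3, while Con replicate 1 lay among the tumours. Lor had 221, 841 and 791 CPM in Con replicates 1 to 3 and 149, 72.3, 262 and 437 CPM in BCC (−1.41, SE 0.76, adjusted p 0.230 by edgeR), and −1.82 without Con replicate 1 (adjusted p 0.156 by edgeR). The Lce1 sum had 92.1, 484 and 745 CPM in Con and 83.6, 41.7, 114 and 182 CPM in BCC (−2.05, SE 0.82, adjusted p 0.124 by edgeR). Called were Flg2, with 14.9, 47.7 and 44.1 CPM in Con and 3.12, 3.43, 10.5 and 8.41 CPM in BCC (−2.47, adjusted p 0.0268 by edgeR), and Lce1m (−3.57, adjusted p 0.0387 by edgeR). Without SmoM2 Con replicate 1 the number of late genes called lower went from 2 to 15, with 27.5% of all genes called in either direction, and the Lce1 sum passed (−2.54, adjusted p 0.0415 by edgeR). Without Con replicate 2, Con replicate 3, BCC replicate 1 or BCC replicate 2 the number of late calls was 0. It was 1 without BCC replicate 3 or 4. Of all genes, 21.5% to 26.6% were called in either direction in these fits. The number of early genes called lower was 1 without Con replicate 2, Con replicate 3, BCC replicate 1 or BCC replicate 4. The early rises numbered 1 without Con replicate 1 or BCC replicate 4, and 0 without Con replicate 2 or Con replicate 3. Interfollicular keratinocyte markers, among them suprabasal keratins, summed to 64616 to 83679 CPM in SmoM2 Con and 36294 to 49904 CPM in SmoM2 BCC, with 4 of 5 called lower. Tail scale and hair cortex keratins summed to 20629 to 47381 CPM in SmoM2 Con and 2401 to 5806 CPM in SmoM2 BCC, with 2 of 4 called lower. Hair follicle markers summed to 213 to 344 CPM in SmoM2 Con and 426 to 608 CPM in SmoM2 BCC, without overlap. Of the 6, 2 were called higher (Lhx2 and Sox9). The inner root sheath keratins Krt25, Krt27, Krt28 and Krt71 went the other way, at −1.51, −1.38, −1.38 and −1.50 on the log2 scale (adjusted p 0.103 to 0.213 by edgeR). Fibroblast markers summed to 17.2 to 39.8 CPM in SmoM2 Con and 387 to 525 CPM in SmoM2 BCC, with 2 of 6 called higher. Most of that sum was Dcn, with 12.2 to 27.7 CPM in Con and 362 to 500 CPM in BCC. Col1a1, Col3a1, Lum and Pdgfra were low and overlapped between the groups. Of the melanocyte markers 2 of 5 were called lower, of the leukocyte markers 1 of 6 lower and of the endothelial markers 1 of 4 higher. The part of these markers in the lower late genes was not tested.

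In Gnas-eKO no member was called. Of 39 members tested, 34 had a positive log2 fold change, and 16 had an unadjusted p under 0.05 in the edgeR test, all of them higher in BCC. At that unadjusted threshold stood 19.6% of all 16409 genes tested, while 1.46% were called higher and 0.165% lower after adjustment. The 4 tested Lce3 genes were all among the 16. Some of them passed the low-count filter only through the BCC libraries, so a fall in them could hardly be seen. They also enter the count of 34 and the late median below. DESeq2 called 2 early, 7 late and 2 restricted members higher, Rptn and Crnn being the last, and 9.37% of all genes in either direction. In 7 members all BCC libraries lay above all Con libraries and in none below, against 9.98% and 9.7% of all genes. The medians were 0.40 for 13 early genes and 0.82 for 23 late genes, against 0.02 for all genes. Leaving out 1 library moved them between 0.17 (without BCC replicate 3) and 0.74 (without Con replicate 1), and between 0.44 (without BCC replicate 1) and 1.09 (without Con replicate 1). Lor had 316, 225 and 392 CPM in Con and 637, 292, 385 and 364 CPM in BCC (0.45, SE 0.29, adjusted p 0.446 by edgeR). The Lce1 sum had 296, 200 and 158 CPM in Con and 575, 339, 325 and 189 CPM in BCC, with groups that overlap (0.72, SE 0.36, adjusted p 0.316 by edgeR). Sprr1a had 178, 100 and 111 CPM in Con and 282, 122, 221 and 203 CPM in BCC (0.69, adjusted p 0.254 by edgeR). The Sprr2 sum had 626, 500 and 201 CPM in Con and 510, 198, 867 and 184 CPM in BCC, with log2 fold change 0.00 (SE 0.59 and adjusted p 0.998 by edgeR). Without BCC replicate 2 these values were 0.59 for Lor, 0.75 for the Lce1 sum, 0.87 for Sprr1a and 0.25 for the Sprr2 sum (adjusted p 0.232, 0.282, 0.0566 and 0.826 by edgeR). The Sprr1 sum, at 0.48 with all libraries (adjusted p 0.355 by edgeR), passed without it (0.68, adjusted p 0.0428 by edgeR).

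Sprr2i, Sprr2e, Rptn, Crnn and the Lce3 sum had log2 fold changes above 2 in Gnas-eKO, and none of them passed. Sprr2i had 21.5, 1 and 7 counts in Con and 143, 33, 139 and 184 counts in BCC (3.63). Sprr2e had 23.5, 2 and 9 counts in Con and 67, 15, 123 and 154 counts in BCC (2.89). Of the 5 alternative fits that kept all libraries, Sprr2i was called in 3 and Sprr2e in 1. The Lce3 sum had 1.01, 0.615 and 1.02 CPM in Con and 6.23, 1.61, 21.9 and 11.2 CPM in BCC, all above the controls (3.53, SE 0.81, adjusted p 0.0697 by edgeR), in a fit with family sums that called 1.51% of genes higher. Rptn had 29.1, 22.2 and 36.2 CPM in Con and 134, 34.5, 253 and 189 CPM in BCC (2.40, SE 0.58, adjusted p 0.0784 by edgeR). Crnn had 1.45 to 4.51 CPM in Con and 3.75 to 23.7 CPM in BCC (2.02, adjusted p 0.145 by edgeR). BCC replicate 2 gave the lowest tumour value in all of these. Without it, 3 early, 4 late and 2 restricted members were called higher, while over all genes 1910 of 16195 (11.8%) were then called in either direction. The restricted genes were Rptn (2.73, adjusted p 0.00119 by edgeR) and Crnn (2.31, adjusted p 0.0343 by edgeR), and the Lce3 sum passed too (3.88, adjusted p 0.00366 by edgeR). Tchh, in contrast to PKI, had 43.1 to 117 CPM in Con and 31.0 to 105 CPM in BCC (−0.18, adjusted p 0.867 by edgeR). Hair follicle markers summed to 212 to 361 and 336 to 711 CPM there, with none called, and fibroblast markers to 15.9 to 27.4 and 94.3 to 579 CPM, with 1 of 6 called higher. Neutrophil markers summed to 14.6 to 74.4 CPM in Con and 54.5 to 1995 CPM in BCC there. Among them Cxcr2 had 1.69 to 4.41 CPM in Con and 0.677 to 3.19 CPM in BCC (−0.56, adjusted p 0.616 by edgeR). Tail scale and hair cortex keratins summed to 17321 to 38155 CPM in Con and 45.2 to 21644 CPM in BCC. Both of these sums overlapped between the groups, and none of their genes was called. Interfollicular keratinocyte markers summed to 62918 to 75598 CPM in Gnas-eKO Con and 29316 to 54297 CPM in Gnas-eKO BCC, without overlap, though none of the 5 was called. The part of these markers in these values was not tested.

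**Figure D4:**
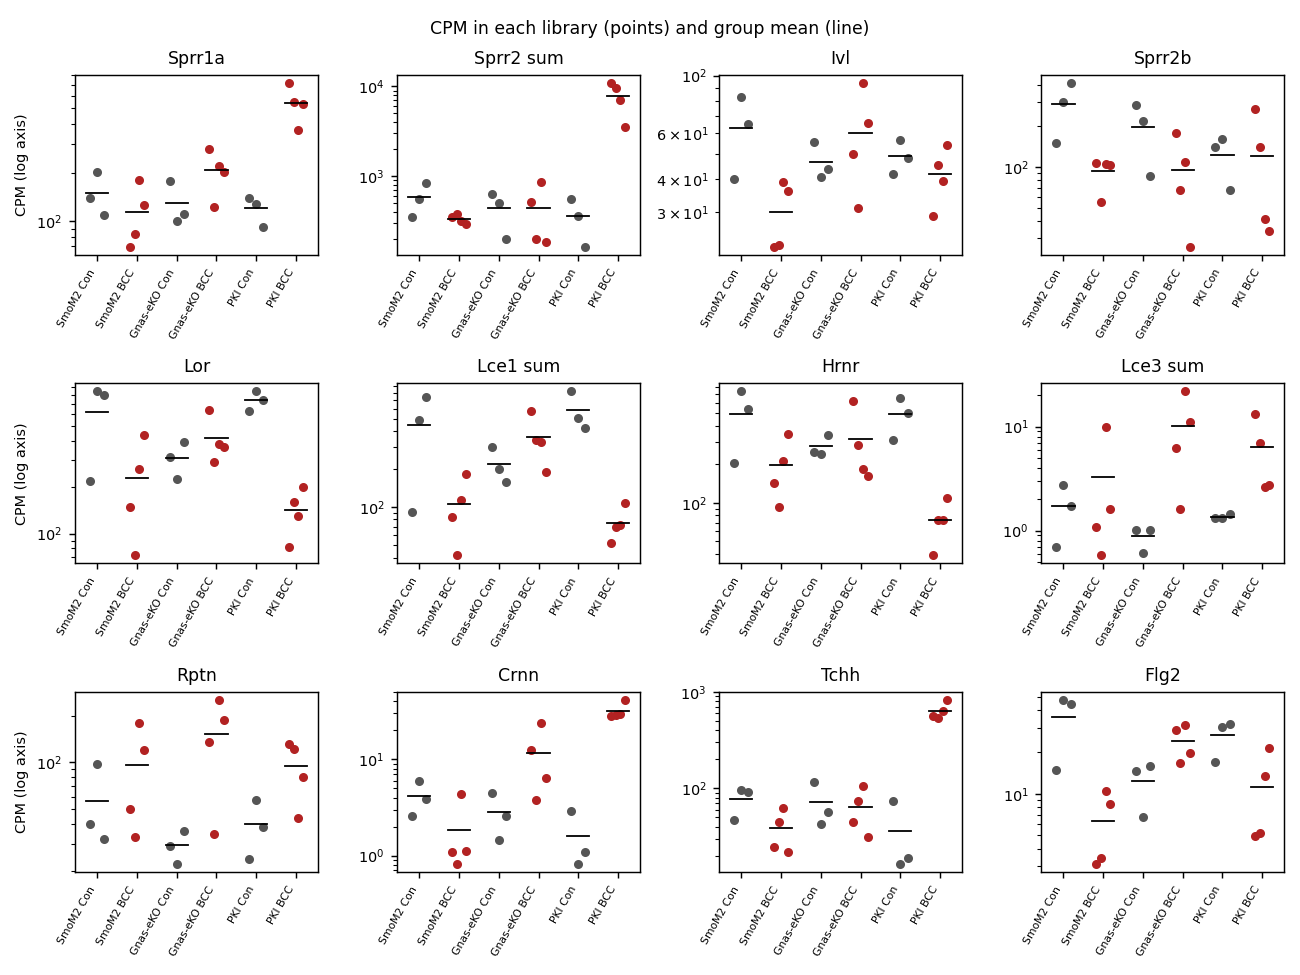
CPM (log axis) in each library for 9 members and the Sprr2, Lce1 and Lce3 sums. Points are libraries, grey for Con and red for BCC, and lines are group means. Sprr1a and the Sprr2 sum are separate from Con in PKI, where Lor, the Lce1 sum and Hrnr lie below all Con libraries.

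The difference between models was tested directly. The PKI change exceeded the SmoM2 change in 11 members and was below it in none, of 43 tested, against 12.6% and 12.3% of all 17261 genes. The 11 were 8 early genes (Sprr1a, Sprr1b, Sprr2a1, Sprr2a2, Sprr2a3, Sprr2h, Sprr2j-ps and Sprr4) and 3 restricted genes (Crnn, Tchh and Tchhl1). For Sprr2a2 the difference was 5.68 (SE 0.98 and adjusted p 0.00232 by edgeR) and for Tchh 5.16 (SE 0.80 and adjusted p 0.00131 by edgeR). No late gene was called between PKI and SmoM2: for the 14 Lce1 genes the differences ran from −1.25 to −0.53, with edgeR adjusted p-values of 0.317 or more. Between PKI and Gnas-eKO, 4 members were higher and 17 lower of 44 tested, against 4.49% and 4.57% of all 17254 genes. The 17 were the 14 Lce1 genes, Lor, Hrnr and Lce6a, and the 4 were Sprr1a, Sprr2a1, Sprr2a2 and Tchh. The Lce1 differences ran from −4.17 to −2.96, and that of Lor was −2.79 (SE 0.43 and adjusted p 0.00312 by edgeR). The count of 4 was 2 without Gnas-eKO Con replicate 1, Gnas-eKO Con replicate 2, PKI Con replicate 3 or PKI BCC replicate 2. In those fits 3.79% to 5.09% of all genes were called in either direction. The count was 6 without Gnas-eKO BCC replicate 3 or PKI BCC replicate 3, with 14.7% and 8.29% of all genes called. Between Gnas-eKO and SmoM2 no member of 43 was called in edgeR, against 0.0758% and 0.0991% of all genes, while 22 had an unadjusted p under 0.05, as had 8.74% of all 17151 genes. DESeq2 called 4 members higher there, and 1.24% of all genes in either direction. All 14 Lce1 genes were among the 22, with differences of 2.40 to 3.37. Without SmoM2 Con replicate 1, edgeR called 1 member higher there, and 0.125% of all genes in either direction. The models compared here share no Con libraries, but each model is its own batch and day.

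The ratio of Ivl to Lor was read within each library, where scaling cancels. Ivl did not follow the Sprr genes in PKI, so this ratio does not stand for the early list. In PKI its log2 value was −3.90 ± 0.02 in Con (SD, n = 3) and −1.73 ± 0.17 in BCC (SD, n = 4). All 4 BCC libraries, at −1.50, −1.82, −1.72 and −1.88, lay above the Con libraries, at −3.89, −3.90 and −3.93. The difference was 2.17 (two-sided exact permutation p = 0.0286, the smallest the 35 splits allow, and 0.0857 after adjustment over the 3 models). In SmoM2 the ratio was −3.14 ± 0.60 in Con and −2.70 ± 0.78 in BCC, a difference of 0.44 (exact permutation p = 0.514, adjusted 0.743). It was 0.77 without SmoM2 Con replicate 1 and 0.10 without SmoM2 BCC replicate 2. In Gnas-eKO it was −2.71 ± 0.39 and −2.85 ± 0.74, a difference of −0.14 (exact permutation p = 0.743, adjusted 0.743). On their own, Lor changed by −2.35 and Ivl by −0.21 on the log2 scale in PKI.

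**Figure D5:**
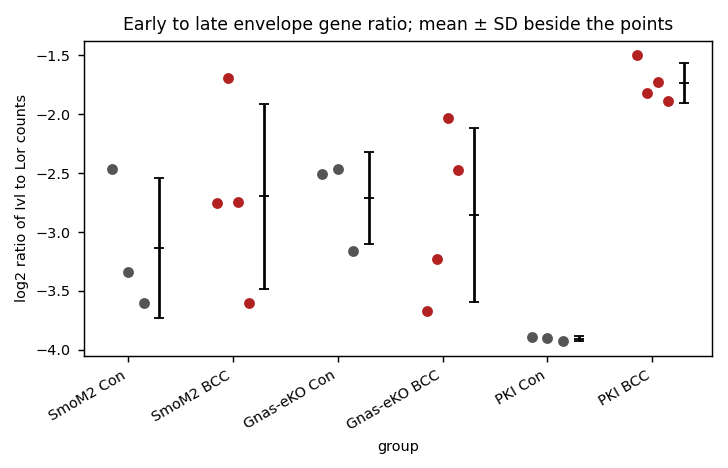
Log2 ratio of Ivl to Lor counts in each library, grey for Con and red for BCC, with mean ± SD beside the points. In PKI the Con libraries lie between −3.93 and −3.89 and the BCC libraries between −1.88 and −1.50.

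Other genes of cornification, none of them members, were read from lists of 4 to 15 genes. Beside their counts stand the shares of all genes called higher and lower, which were 16.2% and 13.5% for the SmoM2 tumours. For Gnas-eKO these shares were 1.46% and 0.165%, and for PKI they were 18.7% and 15.8%. Counts such as the 2 of 15 transcription factors called higher in SmoM2 and the 3 of 15 called lower in PKI lie near these shares. Of 4 cross-linking enzymes, 1 rose and 3 fell in SmoM2, 1 rose and 1 fell in Gnas-eKO, and 1 rose and none fell in PKI. The riser was Tgm5, an epidermal transglutaminase, in each model, with log2 fold changes of 2.65, 3.10 and 2.38 (adjusted p 4.16e-05, 0.0202 and 2.60e-05 by edgeR). Tgm3, the transglutaminase of late envelope assembly and hair, fell by 1.00 in SmoM2 and by 1.21 in Gnas-eKO (adjusted p 0.00190 and 0.0475 by edgeR). Tgm1, the membrane-bound enzyme of the epidermis, fell by 1.17 in SmoM2 (adjusted p 0.0200 by edgeR). Of 12 scaffold and other envelope proteins tested, 7 fell in SmoM2, none was called in Gnas-eKO and 7 fell in PKI, and none was called higher in any model. Kprp, the keratinocyte proline-rich protein, fell by 2.65 in PKI (adjusted p 0.000309 by edgeR). Of 8 filaggrin-processing genes, 4 rose and 2 fell in PKI, 2 rose and 1 fell in SmoM2, and none was called in Gnas-eKO. Padi3 and Padi1, which convert arginine to citrulline in filaggrin and trichohyalin, rose by 4.82 and 4.10 in PKI (adjusted p 0.00133 and 0.000143 by edgeR). Of 15 transcription factors, 2 rose and 8 fell in SmoM2, none was called in Gnas-eKO and 3 fell in PKI. Maf, a regulator of late differentiation, fell by 1.31 in SmoM2 and 1.25 in PKI (adjusted p 8.17e-06 and 5.16e-05 by edgeR). Of 6 keratins, 4 fell in SmoM2, none was called in Gnas-eKO, and 1 rose and 3 fell in PKI. The suprabasal keratin Krt1 rose by 1.80 in PKI while Krt2, of the uppermost living layers, fell by 2.37 (adjusted p 0.0414 and 0.0189 by edgeR).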

How the data were processed

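Keratinocyte mRNA was sequenced in 21 libraries (stranded mRNA ligation preparation, per the labels' protocols). The submitters' processing notes name bcl2fastq 2.20, cutadapt 1.18, STAR 2.7.0f and Partek, with the build mm10. The authors deposited expected counts per gene without normalization, of which 33.1% were not exactly whole and 22.7% lay more than 0.01 from a whole number. Their TMM-scaled signal table, which the authors deposited too, was not used in the fits.

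After rounding, tests used edgeR 4.0.16 (R 4.3.3) (filterByExpr by group, TMM, robust quasi-likelihood test) on the 7 libraries of a model, or 14 for differences between models, with Benjamini-Hochberg adjustment over all genes tested. A gene was called at an adjusted p under 0.05. The SE of a log2 fold change is its size over the square root of F. DESeq2 1.42.0, its size factors, no filter, a joint fit, a replicate block and leaving out each library were alternatives. Scripts were tested on simulated data. Floors cover counting error alone, as the reads carry no molecular identifiers and PCR copies cannot be removed by them. No 2 libraries of a group agreed within sampling noise. Members and lists were chosen with earlier results of these data known. Members whose mean log2 CPM reached 2 in a model, or called in one, are named with values, and of each list outside the members at most the 3 highest and 3 lowest called genes per model. Coordinates are from GENCODE M21 (GRCm38) and promoters from RefSeq (GRCm38.p6).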

Additional observations from a re-analysis of the deposited data

Results flagged for a closer look

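A single library stood away from the rest of its group in 2 of 106 member and group pairs of 4 libraries that were looked at, where chance alone gives about 1 in 20. Crnn had 41.6 CPM in PKI BCC replicate 4, against 28.5 to 29.9 CPM in the other PKI BCC libraries. Sprr2b had 55.2 CPM in SmoM2 BCC replicate 2, against 102 to 108 CPM in the other SmoM2 BCC libraries.

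The change in PKI differed from that in SmoM2 by the interaction test in 11 members. On the log2 scale the difference, PKI minus SmoM2, was 2.57 for Sprr1a, 3.19 for Sprr1b, 4.15 for Sprr2a1, 5.68 for Sprr2a2 and 7.89 for Sprr2a3. It was 2.90 for Sprr2h, 3.72 for Sprr2j-ps and 2.76 for Sprr4. For the restricted genes it was 5.44 for Crnn, 5.16 for Tchh and 3.20 for Tchhl1.

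The change in PKI differed from that in Gnas-eKO in 21 members. The difference, PKI minus Gnas-eKO, was 1.51 for Sprr1a, 3.62 for Sprr2a1, 4.84 for Sprr2a2 and 4.33 for Tchh. It was −2.92 for Hrnr, −2.79 for Lor and −3.06 for Lce6a. Among the Lce1 genes it was −3.73 for Lce1a1, −3.78 for Lce1a2, −3.75 for Lce1b, −3.69 for Lce1c and −3.74 for Lce1d. It was −2.96 for Lce1e, −3.40 for Lce1f, −3.38 for Lce1g, −3.42 for Lce1h and −3.66 for Lce1i. The remaining Lce1 values were −3.88 for Lce1j, −3.23 for Lce1k, −4.17 for Lce1l and −3.90 for Lce1m.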

How the results depend on the processing

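The 17 late genes called lower in PKI numbered 17 to 19 under every alternative run, and the medians of early (2.14 to 3.41 without 1 library) and late (−2.96 to −2.49) genes kept their direction. These medians in other fits were added after seeing the data. Without the low-count filter the early members called higher were 7 in PKI and 1 in SmoM2. The early members called lower in SmoM2 were then 1, and the late members called lower there 0. Late members called higher were 3 in PKI and 1 in Gnas-eKO. Of all genes, 23.3% in PKI, 19.9% in SmoM2 and 1.29% in Gnas-eKO were called in either direction without the filter. DESeq2's Wald test called 13 late members lower in SmoM2, 2 early and 7 late members higher in Gnas-eKO, and 1 late member higher in PKI. It called 4 members higher for Gnas-eKO against SmoM2, and 9 for PKI against Gnas-eKO (1.24% and 13.9% of all genes in either direction). The joint fit of all libraries called 1 early member higher and 14 late members lower in SmoM2, 1 early and 2 late members higher in Gnas-eKO, 2 late members higher in PKI, and 7 members higher between PKI and Gnas-eKO. Its share of all genes called in either direction was 22.7% for SmoM2, 14.9% for Gnas-eKO, and 29.3% for PKI. With DESeq2's size factors the Sprr2 sum in Gnas-eKO changed sign, to −0.00619. The cause of these moves was not tested.

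Same-numbered libraries did not pair by their deviations from the group means (correlations −0.13 to −0.09 in SmoM2, 0.04 to 0.18 in Gnas-eKO, −0.07 to 0.28 in PKI). With the replicate number as a block, 0 early members were called higher and 1 late member lower in SmoM2, 1 early and 3 late members higher in Gnas-eKO, and 6 early members higher, 1 early member lower and 1 late member higher in PKI. With the block the share of all genes called in either direction was 20.9% for SmoM2, 0.823% for Gnas-eKO, and 36.5% for PKI. The block gave 1 member higher for Gnas-eKO against SmoM2 and 2 for PKI against Gnas-eKO. It changed the sign of Sprr1b (−0.24) and Tchh (0.13) in Gnas-eKO and of Sprr2b (0.026) in PKI.

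Leaving out 1 library gave 0 to 2 early members higher, 1 to 3 early members lower and 0 to 15 late members lower in SmoM2. In Gnas-eKO it gave 0 to 3 early and 0 to 4 late members higher, and in PKI 5 to 11 early and 0 to 2 late members higher. Of all genes, 21.5% to 27.5% were then called in either direction in SmoM2. The range was 0% to 11.8% in Gnas-eKO and 24.1% to 33.7% in PKI. Between models, leaving out 1 library gave 0 to 1 member higher for Gnas-eKO against SmoM2 and 2 to 6 for PKI against Gnas-eKO. In SmoM2 the sums ranged from −1.07 to −0.44 for Sprr2, −2.54 to −1.44 for Lce1 and −0.62 to 1.48 for Lce3. In Gnas-eKO they ranged from 0.35 to 0.68 for Sprr1, −0.55 to 0.33 for Sprr2 and 2.85 to 3.88 for Lce3, and the Ivl to Lor ratio from −0.42 to 0.13. In PKI the Lce3 sum ranged from 1.58 to 2.50. Single genes that crossed 0 in Gnas-eKO were Hrnr (−0.38 to 0.41), Lce1l (−0.021 to 0.55), Lce1m (−0.74 to 0.15), Sprr1b (−0.15 to 0.31), Sprr2a2 (−0.52 to 0.59) and Tchh (−0.53 to 0.35), and in PKI Sprr2b (−0.78 to 0.30). Depth limits what can be said of Sprr2f and Sprr2k, which passed the low-count filter in no fit of a single model, and of the Lce3 genes, of which 1, 4 and 2 of 6 passed it in SmoM2, Gnas-eKO and PKI.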

Other observations

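Sprr2g, a Sprr2 gene outside the rule because its row is listed as a polymorphic pseudogene, rose in PKI from 0.0507 to 0.505 CPM (Con) to 0.713 to 9.91 CPM (BCC), or by 3.93 on the log2 scale (adjusted p 0.0407 by edgeR). In SmoM2 it had up to 0.276 CPM in Con and 0.531 to 7.41 CPM in BCC (4.08, edgeR adjusted p 0.0468). In Gnas-eKO it had up to 0.304 CPM in Con and 0.161 to 3.21 CPM in BCC (3.41, edgeR adjusted p 0.131). With so few Con counts, Sprr2g passed the low-count filter only through the BCC libraries, and a fall could hardly be seen.

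Within a library, the balance of the neighbours Sprr2d and Sprr2b was read as a CPM ratio, chosen after their values were seen and not tested. Sprr2d over Sprr2b was 0.0221 to 0.162 in SmoM2 Con and 0.380 to 0.860 in SmoM2 BCC. In PKI it was 0.0188 to 0.104 (Con) and 1.03 to 1.30 (BCC), so that both models showed BCC above Con without overlap. In Gnas-eKO the ratio was 0.0279 to 0.218 in Con and 0.139 to 1.47 in BCC, and the groups overlapped. Both genes have the AP-1 letters and the TATA box at nearly the same places in the promoter.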
